A study of Disanthus cercidifolius subsp. longipes with 9 samples.

Results

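Immune receptor genes of the leaf were followed in Disanthus cercidifolius var. longipes, a deciduous shrub of the witch hazel family. They were taken as the transcript clusters whose first Swiss-Prot match is named as a disease resistance protein, the TMV resistance protein N, a late blight resistance protein, the receptor kinases FLS2 or EFR, or a chitin elicitor receptor kinase. This rule found 208 of the 24385 clusters in the table, under 41 Swiss-Prot names. Of these clusters, 153 matched coiled-coil (CC-type) nucleotide-binding receptors, 41 matched TIR-type nucleotide-binding receptors, 4 matched RPW8-type helpers, 7 matched EFR, 2 matched chitin elicitor receptor kinase 1 (CERK1) and 1 matched FLS2. The late blight name found 0 clusters. Names were read from matches to proteins of other species, so each gene is a match and not a proven ortholog.

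Leaf RNA was sequenced in 9 libraries, 3 for each of the stages F1, F2 and F3. F1 were young unfolded leaves whose inner structure was not yet mature, F2 were near-mature leaves at full area, and F3 were mature leaves, all from branch tips of nursery-grown plants. The labels place the stages on days 20, 23 and 26 of July, while the study's methods give dates a month apart, so the intervals between stages are uncertain. Neither source says which plant gave which library, so p-values measure only the spread between these libraries, which may be technical. The table holds 8657054 to 14284676 counts per library. Every cluster in it had been called by the authors in at least 1 comparison of stages, so a high share of calls is built into the table, and immune receptors outside it were not analysed here.

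Plants detect microbes at the cell surface and inside the cell. Receptor kinases at the cell surface bind conserved microbial molecules: in Arabidopsis, FLS2 binds a peptide of bacterial flagellin, EFR binds a peptide of the elongation factor EF-Tu, and CERK1 takes part in the response to chitin of fungal walls. Inside the cell, nucleotide-binding leucine-rich repeat receptors (NLRs) respond to effector proteins of pathogens, and RPW8-type helpers pass on the signal of many TIR-type NLRs.

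The matches were checked against the domain annotation in the table, which gives 1 Pfam name per cluster. A TIR domain was named for 15 clusters, all TIR-type matches, an Rx N-terminal domain for 10, all CC-type matches, and the RPW8 domain for 3, all helper matches. NB-ARC, the nucleotide-binding domain of NLRs, was named for 72 CC-type and 6 TIR-type clusters. A kinase domain was named for 3 of the 7 EFR matches. No Pfam name was given for 30 clusters, including both CERK1 matches. The domain annotation went against the name of Cluster-10432.36, a match of 457 bases to RBA1 whose Pfam name is a retrotransposon gag protein. The clusters had a median length of 2198.5 bases, against 1727 bases for all clusters.

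Levels are given as FPKM, the fragments of a cluster divided by its length and by the depth of the library. The receptors were weakly expressed: 181 of 208 reached a mean of 1 FPKM in a stage, 131 reached 2 FPKM and 15 reached 10 FPKM. The median of the highest stage mean was 2.57 FPKM, against 3.68 FPKM for all clusters. Summed over the 208 clusters, the level was 445 ± 41.8 FPKM in F1 leaves, 494 ± 2.61 FPKM in F2 leaves and 541 ± 18.6 FPKM in F3 leaves (SD, n = 3). In bulk leaves, fewer cells of a type and less RNA per cell cannot be told apart. Without the most abundant cluster, an EFR match, the sums were 434 ± 40.6 FPKM at F1, 476 ± 1.72 FPKM at F2 and 477 ± 18.7 FPKM at F3. Without the 5 most abundant clusters they were 388 ± 36.7, 435 ± 0.483 and 371 ± 15.9 FPKM at F1, F2 and F3. The sums of F2 and F3 therefore changed order when a few abundant clusters were left out.

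More receptor clusters were higher than lower in F2 leaves against F1 leaves, and more were lower than higher in F3 leaves against F2 leaves. A call needed at least a 2-fold change and an adjusted p below 0.05 (Benjamini-Hochberg over all clusters) in edgeR's quasi-likelihood test. In F2 against F1, 87 of 208 receptor clusters were called, beside 40.8% of all clusters. Of these, 60 were higher and 27 lower, while 22.0% of all clusters were called higher and 18.8% lower. The median log2 fold change was 0.51 for the receptors and 0.17 for all clusters. In F3 against F2, 131 receptor clusters were called, beside 65.3% of all clusters. Of these, 38 were higher and 93 lower, while 29.5% of all clusters were called higher and 35.8% lower, and the medians were -1.0 for the receptors and -0.37 for all clusters. In F3 against F1, 143 receptor clusters were called, beside 69.7% of all clusters. Of these, 67 were higher and 76 lower, close to the 35.0% and 34.7% of all clusters, with a median of -0.38 for the receptors and 0.00 for all clusters. With clusters at 0 counts in a stage set at their bound, the receptor medians did not change, and the medians of all clusters were 0.15 in F2 against F1, 0.00 in F3 against F1 and -0.32 in F3 against F2. Comparisons that share a stage are not independent, and a high F2 value enters both steps.

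Scaling moved the split between the directions. With relative log expression (RLE) scaling, which lowered the median of all clusters in F2 against F1 to 0.00, 54 receptor clusters were higher and 34 lower in F2 against F1, and 42 were higher and 80 lower in F3 against F2. Among called receptor clusters in F2 against F1, 61.4% were higher with RLE scaling and 69.0% with the main scaling. The same shares over all called clusters were 44.9% and 53.9%.

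**Figure D1:**
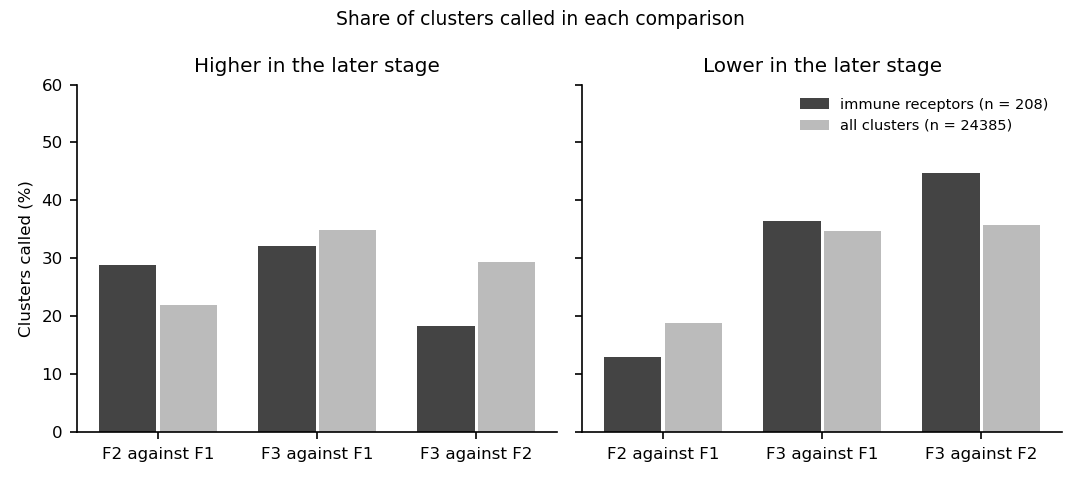
The bars give the percentage of clusters called higher (left) or lower (right) in the later stage, for the 208 immune receptor clusters (dark) and all 24385 clusters (grey). Receptor clusters were lower in F3 against F2 in 93 of 208 cases, against a background of 35.8%, and higher in F2 against F1 in 60 of 208 cases, against a background of 22.0%.

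The highest stage mean fell at F2 for 81 receptor clusters (38.9%), at F1 for 60 and at F3 for 67, whereas 28.6% of all clusters had theirs at F2 and 41.1% at F3. In all, 193 receptor clusters (92.8%, beside 93.6% of all clusters) were called in at least 1 comparison, and 23 (11.1%, beside 13.8%) in all 3. Called higher at F2 against F1 and then lower at F3 against F2 were 21 (10.1%, beside 7.94% of all clusters), and 7 (3.37%, beside 5.34%) showed the opposite order. Called higher at both steps were 5 (2.4%, beside 3.54%) and lower at both steps 11 (5.29%, beside 6.03%). All libraries of a stage had 0 counts for 15 receptor clusters in F1 leaves (7.21%, beside 4.81% of all clusters), 5 in F2 leaves (2.4%, beside 2.71%) and 20 in F3 leaves (9.62%, beside 6.35%). These differences in share were not tested.

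The receptor classes had different counts, and the differences between classes were not tested. CC-type NLR matches were higher in 43 (28.1%) and lower in 22 (14.4%) of 153 cases in F2 against F1, beside 22.0% and 18.8% of all clusters. In F3 against F2, 21 CC-type clusters (13.7%) were higher and 73 (47.7%) lower (median log2 fold change -1.08), beside 29.5% and 35.8% of all clusters. In F3 against F1, 40 CC-type clusters (26.1%) were higher and 64 (41.8%) lower (median -0.79), beside 35.0% and 34.7% of all clusters. TIR-type matches were higher in 11 (26.8%) and lower in 3 (7.32%) of 41 cases in F2 against F1, higher in 19 (46.3%) and lower in 10 (24.4%) in F3 against F1 (median 0.44), and higher in 9 (22.0%) and lower in 17 (41.5%) in F3 against F2, beside the same shares of all clusters. The summed level of CC-type clusters was 326 ± 28.8 FPKM at F1, 362 ± 4.87 FPKM at F2 and 267 ± 7.61 FPKM at F3, and that of TIR-type clusters 75 ± 12.3, 80.9 ± 4.52 and 107 ± 9.93 FPKM (SD, n = 3). In these sums the F3 libraries of CC-type clusters lay below all F1 and F2 libraries, and those of TIR-type clusters lay above them. The TIR-type sums include the 5 clusters of Cluster-12628, at 4.58, 4.84 and 29.1 FPKM at F1, F2 and F3. They also include the 3 clusters of Cluster-33112, at 3.84, 10.6 and 16.6 FPKM.

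**Figure D2:**
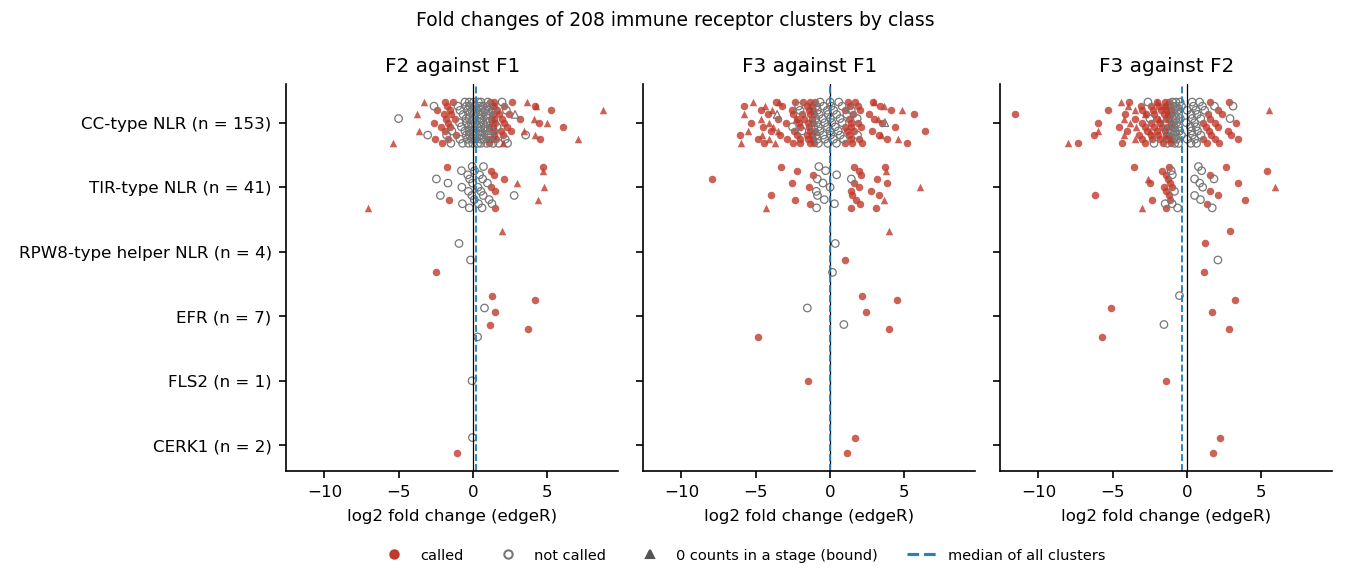
Each point is 1 receptor cluster, placed by its edgeR log2 fold change (horizontal) and its class (vertical), for the 3 comparisons, with later over earlier stage. Filled red points were called, triangles stand at the bound for clusters with 0 counts in a stage, and the dashed line is the median of all clusters. In F3 against F2, 73 of 153 CC-type clusters were called lower and 21 higher.

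Among the surface receptors, the summed level of the EFR matches was highest at F3, with 18.3 ± 1.20 FPKM at F1, 36.2 ± 1.82 FPKM at F2 and 130 ± 1.72 FPKM at F3 (SD, n = 3). Nearly all of the F3 sum came from Cluster-3082.5 and Cluster-3082.4, of 1 number, with means of 63.7 and 61.1 FPKM, so it does not describe the other EFR matches. In F2 against F1, 5 of the 7 were higher and 0 lower by edgeR, with 0 lower at an unadjusted p under 0.05, and DESeq2 called 3 higher and 0 lower. In F3 against F1, 4 were higher and 1 lower, and in F3 against F2, 3 were higher and 2 lower. Among all clusters, 22.0% were higher and 18.8% lower in F2 against F1. The shares were 35.0% and 34.7% in F3 against F1, and 29.5% and 35.8% in F3 against F2. The most abundant of all 208 clusters, Cluster-3082.5, had 11.2, 9.53 and 11.9 FPKM in the F1 libraries, 16.3, 18.1 and 18.1 FPKM at F2 and 66.1, 62.5 and 62.6 FPKM at F3. The 3 stages did not overlap. It rose in F3 against F1 by a log2 fold change of 2.42 ± 0.08 (SE, adjusted p = 1.21e-08 in edgeR) and in F3 against F2 by 1.66 ± 0.08 (adjusted p = 1.42e-07), whereas the difference of 0.76 ± 0.08 in F2 against F1 stayed under a fold of 2.

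Cluster-3082.4, another EFR match with a kinase domain, had 4.05, 3.91 and 3.69 FPKM at F1, 7.65, 8.01 and 8.77 FPKM at F2 and 58.7, 60.6 and 64.1 FPKM at F3. It rose at each step, and its log2 fold change in F3 against F1 was 3.94 ± 0.08 (adjusted p = 8.14e-10). Its change of 1.14 in F2 against F1 was 0.97 with RLE scaling, under a fold of 2. Both clusters carry the same cluster number, which holds 9 clusters in the table, and 5 of them match Xa21, a rice receptor kinase for a bacterial peptide. Clusters of 1 number may be alike in sequence and share reads, which was not tested, so the level of a single cluster is uncertain. The third EFR match of this number, Cluster-3082.3, and the EFR match Cluster-26377.0 had their highest mean at F2, of 0.987 ± 0.293 FPKM and 2.72 ± 0.649 FPKM. The call of Cluster-26377.0 in F2 against F1 (1.44) was lost without F1 replicate 1 or 2 or F2 replicate 2 (1.19 to 1.34).

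The 3 EFR matches of Cluster-3469 did not move together. Cluster-3469.6 had 0.12, 0.08 and 0.06 FPKM at F1, 0.13, 0.15 and 0.32 FPKM at F2 and 2.15, 2.00 and 2.13 FPKM at F3, and rose in F3 against F2 by 3.24 ± 0.40 (adjusted p = 9.48e-05). Cluster-3469.15 had 1.93, 2.46 and 1.81 FPKM at F1, 2.76, 1.87 and 2.85 FPKM at F2 and 0.25, 0 and 0 FPKM at F3, and fell in F3 against F2 (adjusted p = 0.000664). Cluster-3469.8 was high at F2 alone, with 3.77, 4.63 and 4.03 FPKM, and stayed at or below 0.25 FPKM in every other library. With the 10 clusters of this number summed, the log2 fold change in F3 against F2 was -2.49, opposite in sign to that of Cluster-3469.6. The rise of Cluster-3469.6 in F2 against F1 (1.24) lost its call without F1 replicate 2 or 3, F2 replicate 3 or any F3 replicate, with values of 0.75 to 1.24.

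Both CERK1 matches were highest at F3, at low levels. Cluster-29115.0 had 1.35, 1.59 and 1.24 FPKM at F1, 0.57, 0.50 and 0.50 FPKM at F2 and 2.80, 3.27 and 3.21 FPKM at F3. It fell in F2 against F1 by 1.07 on the log2 scale (SE 0.22, adjusted p = 0.003) and rose in F3 against F2 by 2.20 ± 0.22 (adjusted p = 2.43e-05), and its stages did not overlap. Cluster-53134.0 had 0.29, 0.54 and 0.61 FPKM at F1, 0.23, 0.52 and 0.62 FPKM at F2 and 1.22, 2.01 and 1.79 FPKM at F3. It rose in F3 against F1 by 1.67 ± 0.50 (adjusted p = 0.0142), a call lost without F3 replicate 2 (1.47).

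The FLS2 match, Cluster-56776.0, was lowest at F3. It had 1.17, 1.09 and 1.14 FPKM at F1, 0.95, 1.18 and 1.02 FPKM at F2 and 0.52, 0.45 and 0.34 FPKM at F3. It fell in F3 against F1 by 1.51 on the log2 scale (SE 0.24, adjusted p = 0.000381) and in F3 against F2 by 1.44 (SE 0.24, adjusted p = 0.000597), and the difference of -0.07 ± 0.23 in F2 against F1 was not called. The 3 kinds of surface receptor thus did not share 1 direction from F2 to F3, since EFR and CERK1 matches include called rises and FLS2 a called fall.

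**Figure D3:**
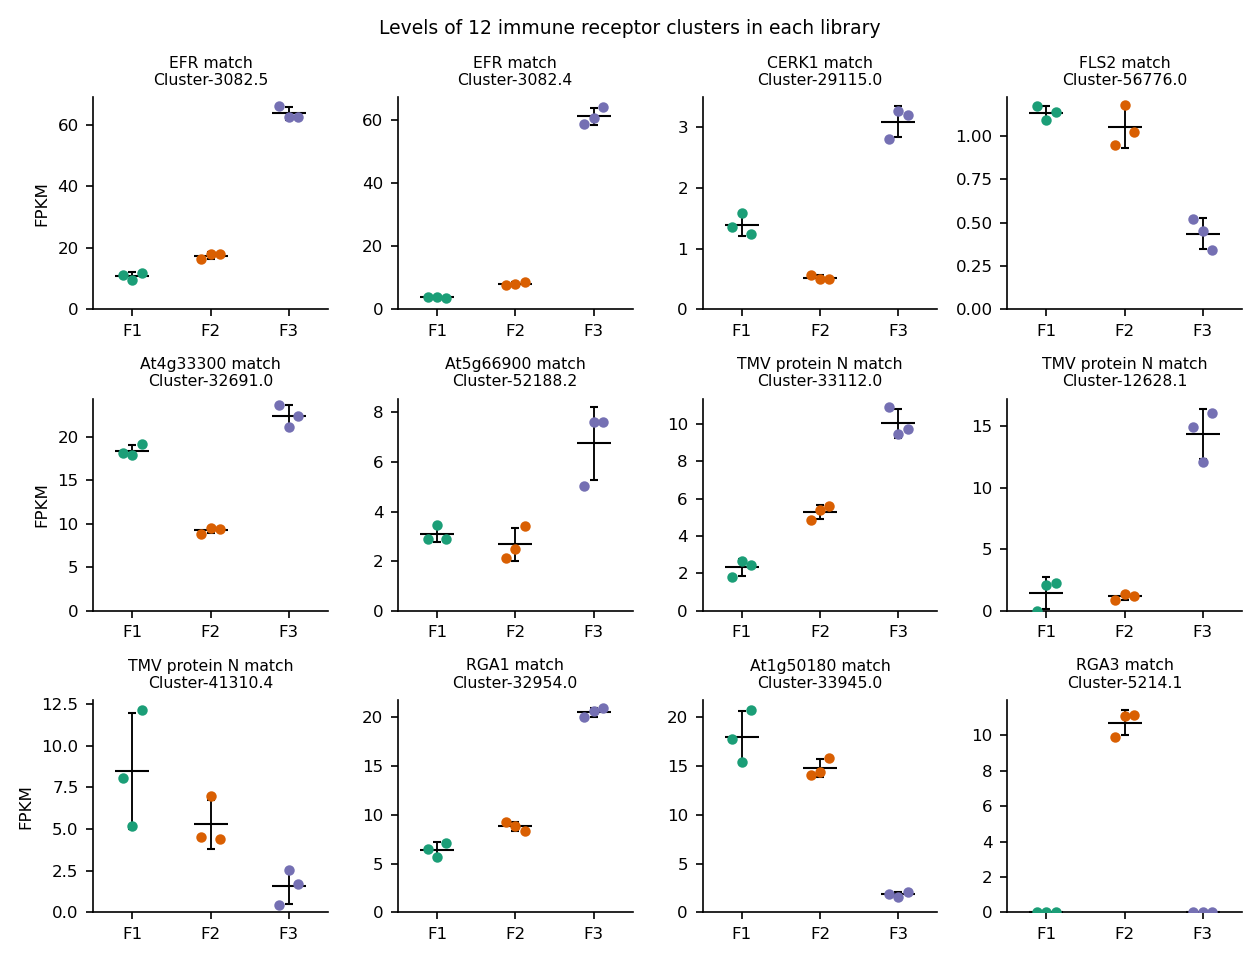
Points are the FPKM of 12 receptor clusters in each library (3 per stage, F1 to F3), with the mean and SD as a bar, and each panel has its own vertical axis from 0. The EFR match Cluster-3082.4 reached 58.7 to 64.1 FPKM at F3, while the At1g50180 match Cluster-33945.0 stayed at 1.63 to 2.12 FPKM there.

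The summed level of the matches to RPW8-type helpers, of which 3 of 4 had the RPW8 domain named, was lowest at F2. Most of the sum at each stage came from Cluster-32691.0, so it does not describe the other 3. In F2 against F1, 1 of the 4 was called higher and 1 lower, beside 22.0% and 18.8% of all clusters. The 4 clusters summed to 22.6 ± 0.192 FPKM at F1, 12.4 ± 0.924 FPKM at F2 and 32.1 ± 1.36 FPKM at F3 (SD, n = 3). Cluster-32691.0, a match to At4g33300, an ADR1-type helper of Arabidopsis, had 18.1, 17.9 and 19.1 FPKM at F1, 8.88, 9.48 and 9.36 FPKM at F2 and 23.6, 21.1 and 22.3 FPKM at F3. It rose in F3 against F2 by 1.11 ± 0.06 (adjusted p = 3.68e-07), and its change of -0.95 ± 0.06 in F2 against F1 stayed under a fold of 2, whereas RLE scaling gave -1.12 and a call. The other 3 clusters matched At5g66900, an NRG1-type helper, and share 1 number.

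Of these, Cluster-52188.2 had 2.91, 3.48 and 2.91 FPKM at F1, 2.12, 2.51 and 3.42 FPKM at F2 and 5.05, 7.60 and 7.61 FPKM at F3, and rose in F3 against F2 by 1.18 ± 0.24 (adjusted p = 0.00193). Its change in F3 against F1 was 1.01, close to the threshold, and lost its call without F1 replicate 1 or 3 or F3 replicate 2 or 3 (0.83 to 0.95). Cluster-52188.3 had 1.58, 1.13 and 0.81 FPKM at F1, 0.37, 0.09 and 0.16 FPKM at F2 and 1.58, 1.53 and 1.76 FPKM at F3, so that F2 lay below both other stages. Cluster-52188.1 had 0 counts at F1, a mean of 0.303 FPKM at F2 and 0.31, 2.84 and 0.87 FPKM at F3. It was at least 15.8-fold higher in F3 against F1. It was also called higher in F2 against F1, a call lost without F1 replicate 2 or 3 or any F2 replicate. Folds against a stage without counts are bounds set at a floor of 3 counts per library.

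**Figure D4:**
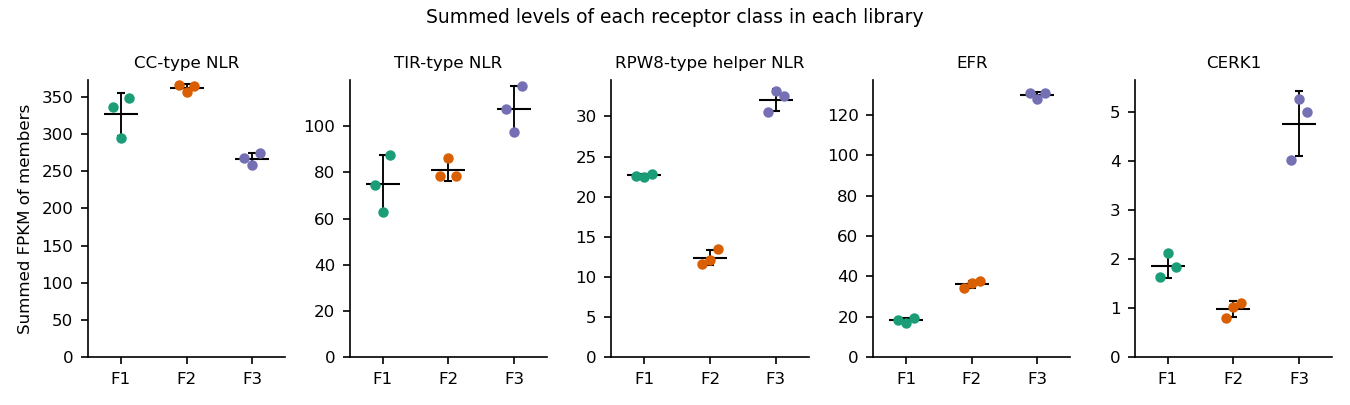
Summed FPKM of the clusters of each receptor class in each library (points, 3 per stage) with mean and SD, each panel with its own axis from 0. Helper sums, mostly from Cluster-32691.0, and CERK1 sums were lowest at F2, and CC-type sums were lowest at F3. EFR sums were higher at each stage and reached 127.71 to 130.87 FPKM at F3, mostly from Cluster-3082.5 and Cluster-3082.4.

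TIR-type NLR matches included clusters that were highest at F3 and others that were lowest there. The 5 clusters of Cluster-12628, which match TMV resistance protein N, RPV1, RUN1 and Roq1, were all called higher in F3 against F1 and in F3 against F2. Among all clusters, 35.0% and 29.5% were called higher in these comparisons. The summed level of Cluster-12628 was 4.58 FPKM at F1, 4.84 FPKM at F2 and 29.1 FPKM at F3. N recognises tobacco mosaic virus, and RPV1 and RUN1 of grapevine act against mildews. Its most abundant cluster, Cluster-12628.1, had 0, 2.14 and 2.28 FPKM at F1, 0.90, 1.39 and 1.25 FPKM at F2 and 14.9, 12.1 and 16.1 FPKM at F3. One F1 library was at 0, but all F3 libraries lay above every other library.

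Cluster-33112.0, also a match to N, had 1.83, 2.69 and 2.46 FPKM at F1, 4.86, 5.39 and 5.61 FPKM at F2 and 10.9, 9.45 and 9.71 FPKM at F3. It rose in F2 against F1 by 1.21 ± 0.17 (adjusted p = 0.000442) and in F3 against F1 by 1.98 ± 0.18 (adjusted p = 9.56e-06), with no overlap between stages. In contrast, the N match Cluster-41310.4 had 8.04, 5.20 and 12.1 FPKM at F1, 4.51, 6.99 and 4.39 FPKM at F2 and 0.46, 2.54 and 1.68 FPKM at F3. Its counts were 273, 272 and 398 at F1, 271, 262 and 204 at F2 and 16, 25 and 24 at F3, and it fell in F3 against F1 by 3.96 on the log2 scale (SE 0.24, adjusted p = 7.41e-07). The 12 matches to N were higher in 6 (50%) and lower in 4 (33.3%) cases in F3 against F1, beside 35.0% and 34.7% of all clusters.

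The retrotransposon-like RBA1 match, Cluster-10432.36, had 3.37, 3.2 and 6.58 FPKM at F1, 8.83, 15.1 and 9.94 FPKM at F2 and 15.6, 13 and 23.9 FPKM at F3. It rose in F3 against F1 by 1.94 ± 0.38 (adjusted p = 0.00142). Its number holds 2 matches to an RNA-directed DNA polymerase homolog and 18 clusters without a Swiss-Prot match, so that this cluster may not be a receptor. Its level is part of the sums above. Without it, the TIR-type clusters summed to 70.6 ± 10.7 FPKM at F1, 69.6 ± 1.38 FPKM at F2 and 89.7 ± 4.77 FPKM at F3, and the F3 libraries, at 84.3 FPKM or more, still lay above all others. The 5 clusters of Cluster-12628 gave 4.58 FPKM at F1, 4.84 FPKM at F2 and 29.1 FPKM at F3 of these sums. Their rise was larger than that of the whole sum. The 3 N matches of Cluster-33112 rose too, from 3.84 FPKM at F1 to 16.6 FPKM at F3. As 10 TIR-type clusters were called lower in F3 against F1, the net rise cannot be placed in 1 number.

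Matches to L6, a flax rust resistance protein, showed how single clusters and their number can differ. The 9 L6 clusters of Cluster-29166 summed to 14.4 FPKM at F1, 13.7 FPKM at F2 and 12.2 FPKM at F3. In F3 against F1, 5 of the 9 were called higher and 2 lower, beside 35.0% and 34.7% of all clusters. Cluster-29166.18 averaged 4.01, 1.14 and 0.02 FPKM at F1, F2 and F3, whereas Cluster-29166.20 had 0 counts at F1 and 2.69, 1.89 and 2.75 FPKM at F3, at least 67.5-fold higher in F3 against F1. Summed over the number, the log2 fold change in F3 against F1 was -0.29. Of 34 numbers with 2 or more receptor clusters, 12 held clusters called in opposite directions in F2 against F1, 14 in F3 against F1 and 10 in F3 against F2. The same was not counted over the other numbers of the table, so it cannot be read as particular to receptors. With all clusters of 1 number summed, receptors or not, 115 numbers held a receptor cluster. Of these, 29 were higher and 9 lower in F2 against F1, beside 22.6% and 21.2% of all 14454 numbers. In F3 against F2, 17 were higher and 60 lower, beside 29.3% and 36.8%. Where a number also holds other clusters, its sum is not a receptor level.

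**Figure D5:**
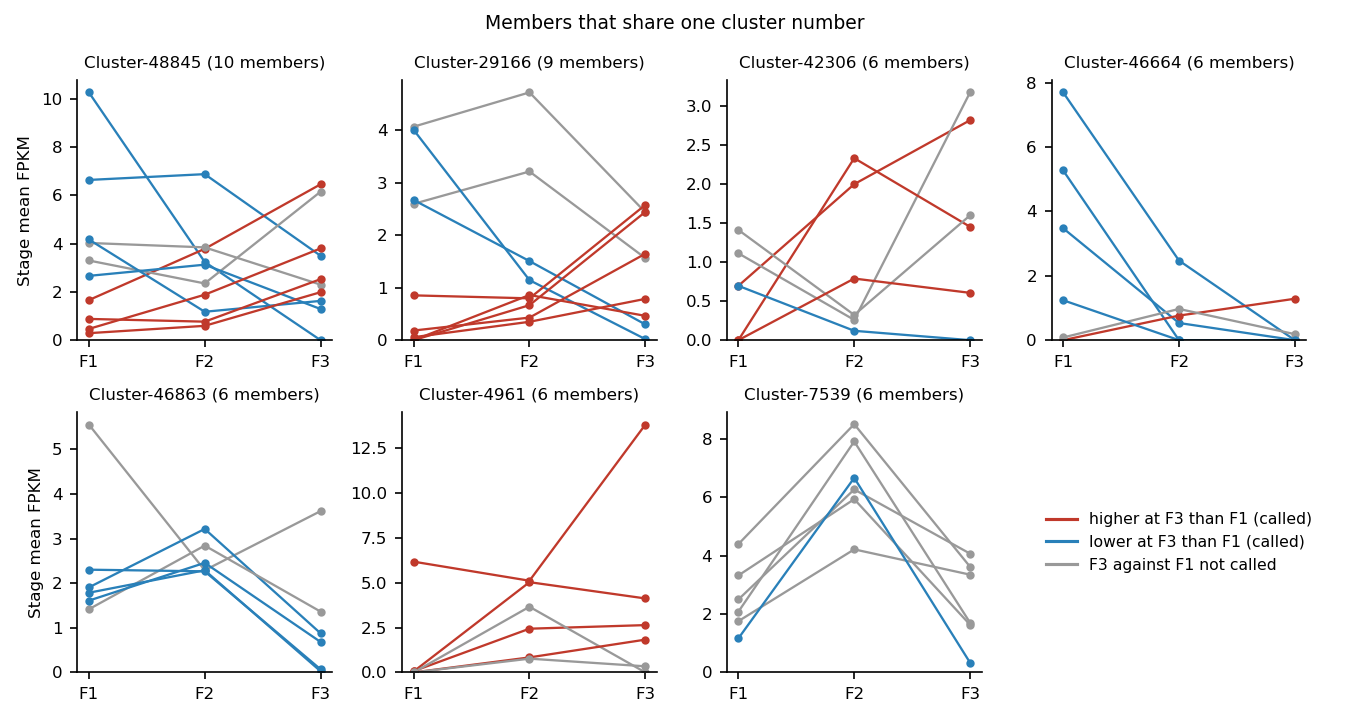
Lines join the stage means (FPKM, F1 to F3) of the receptor clusters in each of the 7 numbers with at least 6 of them, with red and blue for clusters called higher and lower in F3 against F1 and grey for the others. The 9 L6 clusters of Cluster-29166 cross, while the 6 clusters of Cluster-7539 all peak at F2.

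Abundant CC-type NLR matches included both rises and falls in F3 against F1. Cluster-32954.0, a match to RGA1, a relative of potato blight resistance genes, had 6.50, 5.64 and 7.15 FPKM at F1, 9.27, 8.83 and 8.37 FPKM at F2 and 20.0, 20.6 and 20.9 FPKM at F3, and rose in F3 against F1 by 1.55 ± 0.09 (adjusted p = 5.23e-07). Cluster-33945.0, a match to At1g50180, had 17.8, 15.4 and 20.8 FPKM at F1, 14.1, 14.4 and 15.8 FPKM at F2 and 1.93, 1.63 and 2.12 FPKM at F3. It fell in F3 against F1 by 3.37 on the log2 scale (SE 0.12, adjusted p = 2.45e-08), and F3 lay below every F1 and F2 library. Cluster-14507.2, another match to At1g50180, went the other way, at 0.02, 0.06 and 0.01 FPKM at F1, 0.64, 0.96 and 0.64 FPKM at F2 and 3.08, 3.14 and 2.87 FPKM at F3.

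Some CC-type clusters were found at F2 almost alone. Cluster-5214.1, a match to RGA3, had 0 counts in the F1 libraries, 9.88, 11.1 and 11.1 FPKM at F2 and a single count over the F3 libraries. It was at least 424-fold higher in F2 against F1. Cluster-5214.0, a match to RGA4 of the same number, had 1.69, 2.72 and 2.02 FPKM at F2 and 0 counts at F1 and F3. Cluster-4961.10, a match to At4g27190, had 3.70, 3.27 and 4.01 FPKM at F2 and likewise 0 counts at both other stages. It was at least 17.8-fold higher in F2 against F1 and at least 19.4-fold lower in F3 against F2.

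Matches to RPP13, an Arabidopsis receptor against downy mildew, were lower in F3 against F1 in 8 (53.3%) and higher in 4 (26.7%) of 15 cases. Among all clusters, 34.7% were lower and 35.0% higher. Cluster-46664.11 had 7.94, 7 and 8.15 FPKM at F1, 2.27, 3.72 and 1.43 FPKM at F2 and 0 counts at F3, at least 56.3-fold lower in F3 against F1. Cluster-46664.6, of the same number, had 5.03, 4.22 and 6.57 FPKM at F1 and 0 counts at F2 and F3, at least 42.3-fold lower in F2 against F1. Cluster-42496.0, a match to RGA1, had 2.64, 2.56 and 2.47 FPKM at F1, 0.77, 0.62 and 0.28 FPKM at F2 and 0 counts at F3, at least 64.0-fold lower in F3 against F1.

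Clusters at 0 in some stages also occurred beside abundant ones of the same number. In Cluster-4226, the N match Cluster-4226.5 had 8.4, 4.65 and 7.99 FPKM at F1, 0 counts at F2 and 3.91, 2.45 and 3.76 FPKM at F3, whereas the RGA3 match Cluster-4226.9 had 9.04, 13.9 and 8.29 FPKM at F2, 0 counts at F3 and counts in 1 F1 library only. Summed over the number, the log2 fold change in F2 against F1 was 0.96 and in F3 against F2 -0.46, opposite in sign to those of Cluster-4226.5. The call for Cluster-4226.9 in F2 against F1 (4.44) was lost without F2 replicate 1 (4.53) or F2 replicate 2 (4.18). Cluster-4226 also holds 13 matches to EIX2, a receptor-like protein of tomato, which are not of the NLR type.

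In 2 called cases the counts and FPKM disagreed in direction. Cluster-4226.14, a match to RGA3, had counts of 516, 593 and 661 at F1, 495, 556 and 386 at F2 and 337, 320 and 293 at F3, and edgeR gave a log2 fold change of -1.02 ± 0.08 in F3 against F1, while its FPKM were 12.4, 8.05 and 9.29 at F1 and 17.6, 10.6 and 14.3 at F3. Cluster-51438.0, a match to At4g27190, had counts of 99, 89 and 89 at F2 against 41, 36 and 48 at F1 and was called higher (1.15 ± 0.27), while its FPKM were 1.82, 1.47 and 2.18 at F2 and 3.54, 1.24 and 2.79 at F1. The deposited FPKM use a length that differs between libraries for the same cluster, so the direction of both is uncertain.

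Among the names with at least 7 clusters, the matches to At3g14460 were higher in 5 of 7 cases and lower in 0 of 7 in F2 against F1 by edgeR, while 1 was lower at an unadjusted p under 0.05 and 1 was called lower by DESeq2. Of them, 4 were lower in F3 against F2. The 20 matches to RGA3 were lower in 12 and higher in 0 cases in F3 against F2 by edgeR, with 0 higher at an unadjusted p under 0.05 and 8 lower and 0 higher in DESeq2. The 22 matches to At4g27190 were higher in 9 and lower in 2 cases in F2 against F1, and lower in 10 and higher in 3 in F3 against F2. Among all clusters, 22.0% were higher and 18.8% lower in F2 against F1, and 29.5% higher and 35.8% lower in F3 against F2. The counts by name describe the names only, since clusters of a name can share a number.

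The rule's wording leaves out 36 clusters matched to RPP13-like, RPP8-like and similar NLR names. Of these, 12 (33.3%) were higher and 6 (16.7%) lower in F2 against F1, beside 22.0% and 18.8% of all clusters. In F3 against F1, 8 (22.2%) were higher and 19 (52.8%) lower, beside 35.0% and 34.7%, and in F3 against F2, 5 (13.9%) were higher and 24 (66.7%) lower, beside 29.5% and 35.8%.

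Other genes of the immune pathway were read from a list of 189 clusters. They were higher in 25 and lower in 49 cases in F2 against F1, higher in 63 and lower in 94 in F3 against F1, and higher in 65 and lower in 69 in F3 against F2, beside the shares of all clusters given above. Among 18 NLR partners, of which 12 are NDR1/HIN1-like, 0 were higher and 4 (22.2%) lower in F2 against F1 by edgeR, beside 22.0% and 18.8% of all clusters. Of the NLR partners, 0 were higher at an unadjusted p under 0.05 and 0 in DESeq2. RIN4, a protein guarded by NLRs in Arabidopsis (Cluster-47172.0), averaged 26.0 ± 1.45, 23.6 ± 1.61 and 86.3 ± 1.67 FPKM at F1, F2 and F3 and rose in F3 against F2 by 1.76 ± 0.08 (adjusted p = 1.49e-07). MPK3, a kinase downstream of surface receptors (Cluster-28419.0), averaged 17.8 ± 1.01, 17.8 ± 1.08 and 70.2 ± 2.44 FPKM and rose by 1.82 ± 0.08 (adjusted p = 1.03e-07). Both had their highest mean at F3.

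Of 79 clusters for co-receptors and signalling, 28 (35.4%) were higher and 29 (36.7%) lower in F3 against F2. Of 23 for salicylic acid, a defence hormone, 11 (47.8%) were higher and 5 (21.7%) lower. Among all clusters, 29.5% were higher and 35.8% lower, and the differences in share were not tested. The match to DMR6, an enzyme that breaks down salicylic acid (Cluster-45362.2), averaged 84.7 ± 5.44, 26.1 ± 0.685 and 14.5 ± 0.232 FPKM at F1, F2 and F3. It fell in F3 against F1 by 2.67 on the log2 scale (SE 0.06, adjusted p = 1.41e-09), while its call in F3 against F2 (-1.01) was lost without F2 replicate 2 (-0.99), with RLE scaling (-0.84) and with library sizes implied by FPKM (-0.85).

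Defence proteins, a list of pathogenesis-related names, were higher in 12 (17.4%) and lower in 33 (47.8%) of 69 cases in F2 against F1, beside 22.0% and 18.8% of all clusters. In F3 against F1, 14 (20.3%) were higher and 44 (63.8%) lower, beside 35.0% and 34.7%. Of the 69, 36 matched glucan endo-1,3-beta-glucosidases, of which 3 were higher and 29 lower in F3 against F1, and which also include enzymes with roles in cell walls. The summed level of the 69 was 761 ± 21.9, 771 ± 18.9 and 1199 ± 8.77 FPKM at F1, F2 and F3, with its highest value where most clusters were lower. Without the most abundant cluster, Cluster-28377.0, it was 650 ± 19.5, 331 ± 5.18 and 521 ± 18.5 FPKM. PR-1 (Cluster-54294.0), a marker of salicylic acid signalling, averaged 139 ± 9.13 FPKM at F1, 28.6 ± 3.05 FPKM at F2 and 1.04 ± 0.373 FPKM at F3. The match to STH-2 (Cluster-28377.0), a pathogenesis-related protein of potato, averaged 111 ± 5.42, 440 ± 19.5 and 678 ± 25.4 FPKM. These 2 pathogenesis-related proteins had opposite orders of stages, with PR-1 falling by 7.19 in F3 against F1 on the log2 scale (SE 0.20, adjusted p = 5.18e-09) and STH-2 rising by 2.51 ± 0.08 (adjusted p = 8.33e-09).

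Markers of cell types and states also differed between the stages. Summed levels of 47 mesophyll clusters, which carry photosynthesis genes, were 72838 ± 1959, 103743 ± 747 and 35232 ± 945 FPKM at F1, F2 and F3. Their most abundant cluster, a ribulose bisphosphate carboxylase small subunit (Cluster-28604.0), was instead highest at F1, with means of 34626, 30843 and 19104 FPKM. Senescence clusters gave 19.8 ± 2.94, 58.7 ± 1.71 and 204 ± 8.60 FPKM (5 clusters), although the SAG39 match Cluster-21761.0 went the other way, at 3.39, 0 and 0 FPKM. Xylem clusters gave 65.3 ± 5.89, 18.5 ± 1.84 and 1.07 ± 0.360 FPKM (11 clusters), and dividing cell clusters 4.06 ± 0.584, 0.583 ± 0.121 and 0.593 ± 0.347 FPKM (2 clusters). The 2 dividing cell clusters were called in opposite directions in F3 against F2. The cyclin-dependent kinase B2-2 match (Cluster-29622.0) averaged 0.45 FPKM at F2 and 0.12 FPKM at F3, and the cyclin-B2-4 match (Cluster-21210.0) 0.133 and 0.473 FPKM. The guard cell list gave 52.3 ± 2.66, 24.9 ± 0.936 and 8.76 ± 0.146 FPKM (7 clusters), but 6 of these matched epidermal patterning factor-like peptides, and EPFL9 (Cluster-34476.0), a signal made in mesophyll, gave 26.0 ± 1.67 FPKM of it at F1, so this sum is not a guard cell level. MYB60 (Cluster-27887.0), the guard cell gene of the list, averaged 15.5 ± 1.13, 9.84 ± 0.365 and 3.51 ± 0.798 FPKM at F1, F2 and F3. The part of these markers in the receptor changes was not tested.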

How the data were processed

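RNA-seq of 9 leaf libraries (3 at each of F1, F2 and F3) was read from 1 deposited table of transcript clusters. The authors counted fragments per cluster and library, and these counts stand in the table without scaling. FPKM were deposited beside them, computed from the counts, cluster length and library size, with a length that differed between libraries. How reads were assembled, aligned and counted is not given in the sources used here. Per the labels the builds are GRCm38 and mm10, both of mouse, and a library kit differs from that of the study's methods. Columns of the authors' own comparisons (fold changes, p-values and calls) were not used. The table totals range over 8657054 to 14284676 counts per library, and the number of libraries limits precision.

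The counts entered edgeR 4.0.16 (TMM scaling, quasi-likelihood test, 1 model of all 9 libraries with stage as factor) in R 4.3.3 over all 24385 clusters, without filter. Calls needed a fold of 2 and an adjusted p below 0.05 (Benjamini-Hochberg). The scripts were tested on simulated data. Named were the up to 4 most abundant clusters of each class, the up to 5 largest called changes per comparison and direction with at least 2 FPKM and no overlap between libraries, every helper and surface receptor of at least 2 FPKM, and the up to 3 most abundant clusters of each pathway group. Clusters outside this rule, such as Cluster-51438.0, Cluster-29166.18 and those of whole numbers, were chosen after their values were seen. Members and lists were chosen with earlier results of these data known. Alternatives were DESeq2 1.42.0, RLE scaling, library sizes implied by FPKM, limma 3.58.1 on log2(FPKM + 1) and log2(FPKM + 0.1), a filter at 1 FPKM, no fold threshold, 2 stages alone, a replicate block, clusters of 1 number summed and each library left out in turn. The inclusion of differently worded NLR names was added after the data had been seen.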

Additional observations from a re-analysis of the deposited data

How the results depend on the processing

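The number of receptor and pathway clusters called in each comparison and direction stayed within 1.5 times under DESeq2, RLE scaling, library sizes implied by FPKM, limma on log2(FPKM + 0.1), the filter at 1 FPKM, no fold threshold, 2 stages alone and each library left out. Without 1 library, receptor calls ranged over 71 to 86 in F2 against F1, 130 to 143 in F3 against F1 and 119 to 131 in F3 against F2. The replicate block gave 77, 138 and 128 receptor calls, and same-numbered libraries did not deviate together (r = -0.014 to 0.023), so the numbers were not taken as pairs. With differently worded NLR names, calls numbered 105, 170 and 160.

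With all clusters of 1 number summed, receptors or not, 38 of 115 numbers holding a receptor cluster were called in F2 against F1 (29 higher, 9 lower). In F3 against F1, 77 were called (28 higher, 49 lower), and in F3 against F2, 77 (17 higher, 60 lower). Over all numbers, 43.8%, 70.2% and 66.1% were called in the same order. These counts are out of 115 numbers and those of single clusters out of 208, so fewer calls are not by themselves a smaller share. With limma on log2(FPKM + 1), whose pseudocount shrinks low levels, called receptor clusters numbered 38 (21 higher, 17 lower), 79 (39 higher, 40 lower) and 68 (38 lower). The split between directions was thus smaller than in the main fit, which gave 60 higher and 27 lower in F2 against F1. In F3 against F2 the main fit gave 38 higher and 93 lower. Shares over all clusters are not given for this setting. The pathway list then had 15 higher in F2 against F1 and 36 lower in F3 against F2.

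Summing by number turned the log2 fold change of single clusters. In F2 against F1 it gave -0.47 for Cluster-52188.1, 0.96 for Cluster-4226.5 and 0.86 for Cluster-42306.11. In F3 against F1 it gave 0.50 for Cluster-4226.14 and Cluster-4226.5, -2.59 for Cluster-5214.1 and Cluster-5214.0, -0.29 for Cluster-29166.20 and -1.94 for Cluster-3469.6. In F3 against F2 it gave 0.46 for Cluster-4961.10, -0.46 for Cluster-4226.5, -1.63 for Cluster-46664.6 and -2.49 for Cluster-3469.6. Of these, Cluster-5214.0 had 0 counts at F1 and F3, and Cluster-46664.6 had 0 counts at F2 and F3. Neither had a fold change of its own in that comparison, so none was turned. For Cluster-4226.14, limma gave 0.50 with a pseudocount of 0.1 and 0.47 with 1 in F3 against F1, and 1.12 and 1.02 in F3 against F2. Both limma settings read the deposited FPKM, whereas edgeR read the counts. The mean FPKM of this cluster were 9.93, 6.34 and 14.2 at F1, F2 and F3.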
